A study of Homo sapiens with 20 samples.

Results

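The proneural basic helix-loop-helix (bHLH) genes examined here were NEUROG1, NEUROG2, NEUROG3, NEUROD1, NEUROD2, ATOH1, OLIG1, OLIG2 and OLIG3. They were 9 of the 19120 protein-coding genes that had at least 1 contact in the deposited Capture Hi-C matrix. A contact pairs a captured fragment (the bait) with another genomic interval (the other end), and it was assigned to a gene where either interval overlapped the gene body on GRCh38 widened by 1 kb. By this rule the genes had 1154 of the 766138 contacts, 282 of the 182303 within chromosomes and 872 of the 583835 between them. They carried 31 of the 28903 baits.

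Poised Enhancer Capture Hi-C, which digests crosslinked chromatin with DpnII, joins fragments that lie near each other and enriches those with a bait, was applied to 20 libraries of 10 conditions with 2 libraries each. HNES1, a human embryonic stem cell line derived in the naive state, was harvested on day 0, when it was kept with PD0325901, LIF, Gö6983 and XAV939, and on days 1, 3, 5, 7, 10 and 14 after a change to N2B27 medium with XAV939. Day 14 HNES1 cells were also turned into definitive endoderm (DE), with Activin A, CHIR99021, FGF2, PI-103, BMP4 and heparin and then Activin A, PI-103, FGF2, LDN193189 and heparin, and into neuroectoderm (NE), with A8301 and LDN193189 over 10 days and a sort for CD56 without EpCAM. H9, a conventional primed line in E8 medium, was the remaining condition, so that H9 and day 14 differ in cell line and culture at once. The naive stock was grown on irradiated mouse feeder cells and was passaged once without feeders before the transition. Contact data hold no marker expression, so whether each labelled cell type expressed its markers was not tested.

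The matrix gave 1 CHiCAGO score per contact and condition, and both libraries of a condition were pooled in it. CHiCAGO scores rise as the reads of a contact exceed those that the caller expects for that bait and distance. Scores of at least 5 were taken as calls, and every listed contact reached that score somewhere, the lowest maximum being 5.00. With 1 pooled value per condition no spread between replicates and no test was possible, and the read depth of the libraries was unknown. The 95% Wilson intervals given for shares cover counting error only, and they treat contacts as independent, which those of neighbouring baits are not. Calls within chromosomes were made for 10.0% of all listed contacts in naive cells, 10.1% at day 1, 12.4% at day 3, 11.7% at day 5, 10.2% at day 7, 10.3% at day 10, 11.2% at day 14, 13.0% in H9, 17.9% in NE and 16.2% in DE.

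Proneural bHLH factors bind the E-box motif CANNTG as dimers with E proteins and switch progenitors to a neuronal or related fate, while Notch signalling through HES repressors holds them back. NEUROG1 and NEUROG2 act early in sensory and cortical neurons, NEUROG3 marks the progenitors of pancreatic endocrine cells, and NEUROD1 and NEUROD2 act later in neuronal maturation, NEUROD1 also in endocrine cells. ATOH1 specifies cerebellar granule neurons, inner ear hair cells and secretory cells of the gut. The OLIG genes pattern the neural tube, and OLIG1 and OLIG2 are needed for oligodendrocytes. In pluripotent cells developmental genes of this kind are usually silent and held in Polycomb chromatin, and poised enhancers are regulatory elements near them that carry the same marks.

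Promoter sequences (250 bases before to 50 after the start, RefSeq, GRCh38.p14) were matched for 7 of the 9 genes, and 4 are shown: the neurogenin promoters, whose place between or inside baits the results refer to, and that of NEUROD2, which held the most E-boxes, the family's own motif. In the first pair capitals mark GATC, the site that DpnII cuts and that sets the limits of baits. In the second pair capitals mark CANNTG, which was searched on both strands and is its own reverse complement. Lines are named by gene and position, and all 4 genes lie on the minus strand.
NEUROG1 chr5:135535915-135536214: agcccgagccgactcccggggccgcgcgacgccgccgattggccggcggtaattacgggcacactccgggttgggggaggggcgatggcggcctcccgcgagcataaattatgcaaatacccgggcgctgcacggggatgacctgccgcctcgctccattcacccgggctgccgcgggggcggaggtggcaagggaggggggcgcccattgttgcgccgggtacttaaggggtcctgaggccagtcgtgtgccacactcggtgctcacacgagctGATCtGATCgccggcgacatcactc
NEUROG2 chr4:112516131-112516430: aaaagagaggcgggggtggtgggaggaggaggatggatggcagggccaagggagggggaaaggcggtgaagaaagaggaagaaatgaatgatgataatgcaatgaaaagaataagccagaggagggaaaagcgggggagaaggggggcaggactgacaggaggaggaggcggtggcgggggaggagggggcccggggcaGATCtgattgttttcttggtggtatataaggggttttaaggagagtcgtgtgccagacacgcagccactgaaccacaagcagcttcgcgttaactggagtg
NEUROG3 chr10:69573373-69573672: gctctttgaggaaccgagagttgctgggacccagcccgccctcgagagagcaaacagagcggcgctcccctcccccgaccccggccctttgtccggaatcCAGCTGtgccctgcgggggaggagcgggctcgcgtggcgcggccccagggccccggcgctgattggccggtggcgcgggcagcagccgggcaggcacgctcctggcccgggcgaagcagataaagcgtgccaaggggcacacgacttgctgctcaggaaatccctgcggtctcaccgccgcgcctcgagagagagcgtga
NEUROD2 chr17:39607871-39608170: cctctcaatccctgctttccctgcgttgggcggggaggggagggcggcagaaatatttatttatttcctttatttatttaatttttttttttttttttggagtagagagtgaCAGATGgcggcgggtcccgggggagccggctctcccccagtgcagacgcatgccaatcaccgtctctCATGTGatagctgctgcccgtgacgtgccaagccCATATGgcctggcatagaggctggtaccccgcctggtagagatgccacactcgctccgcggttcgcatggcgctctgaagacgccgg

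GATC was present 2 times in the NEUROG1 promoter and 1 time each in those of NEUROG2 and ATOH1, or in 3 of the 7, against 39.6% of 15842 promoters with at least 1. The NEUROG1 promoter overlapped no bait and no other end of the matrix: it lay in the gap between the bait that ended at 135535392 and the one that started at 135536521. The NEUROG2 promoter lay in the other-end interval chr4:112514959-112519661, next to the bait that ended at 112514958. The NEUROG3 promoter was inside a bait, chr10:69573164-69574001. E-boxes were found 3 times in the NEUROD2 promoter (CAGATG, then CATGTG, then CATATG) and 1 time in that of NEUROG3 (CAGCTG), and 1 time in that of ATOH1 (CATATG). None was found in the windows of NEUROG1, NEUROG2, NEUROD1 and OLIG3. Of all promoters, 64.5% held CANNTG, 17.7% held CAGCTG, 11.7% held CAGATG or its reverse complement CATCTG and 1.84% held CATATG. CpG dinucleotides numbered 35 in the NEUROG1 window and 10 in that of NEUROG2, with a median of 22.0 over all promoters.

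The 9 genes differed widely in how many contacts they had within chromosomes. Averaged over the 10 conditions, NEUROG1 had 9.90 called contacts, more than 97.2% of the 14271 genes with a contact within chromosomes, and NEUROG2 had 9.10, more than 96.7%. OLIG2 followed with 5.50 and NEUROD1 with 3.40. NEUROD2 (2.30), ATOH1 (2.20), OLIG1 (1.50), NEUROG3 (1.40) and OLIG3 (0.900) lay lower, and OLIG3 still exceeded 58.4% of genes. The number of baits went with this order in part, from 7 at NEUROG1 and 5 at OLIG2 and NEUROD1 to 1 at OLIG1 and OLIG3, but NEUROG2 had only 3. The median distance between bait and other end was 180 kb, against 228 kb over all contacts within chromosomes, and 28.4% of the genes' contacts were shorter than 100 kb, against 15.7%. Of 361 calls within chromosomes, 57.1% scored under 6 and 6 scored 10 or more.

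**Figure D1:**
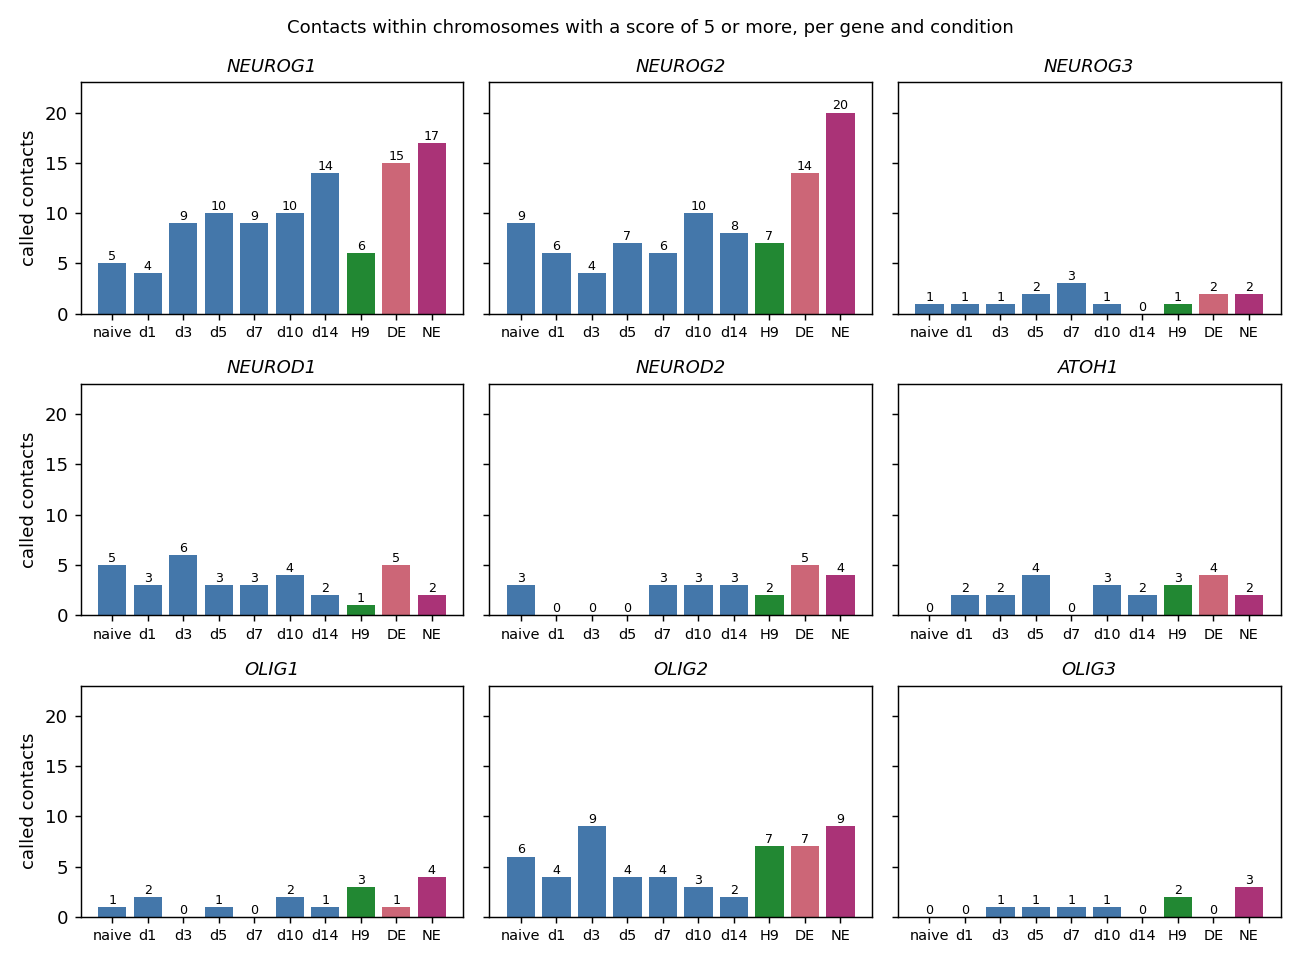
Bars give the number of contacts within chromosomes with a score of 5 or more (vertical axis) in each condition (horizontal axis; d1 to d14 are days of the transition), with 1 panel per gene and 1 pooled value per bar. NEUROG1 went from 5 in naive cells to 14 at day 14, NEUROG2 reached 20 in NE, and NEUROG3, ATOH1, OLIG1 and OLIG3 never exceeded 4.

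NEUROG1 (Gene ID 4762, chr5:135534282-135535964, minus strand) had 74 contacts within chromosomes, 72 of them from its own baits. Its calls numbered 5 in naive cells, 4 at day 1, 9 at day 3, 10 at day 5, 9 at day 7, 10 at day 10, and they reached 14 on day 14. H9 had 6, DE 15 and NE 17. Naive and day 1 cells were thus the lowest conditions and H9 came next, while day 14, DE and NE were the highest. The upper end of this order was lost with no margin, where day 14 had 5 and days 5 and 7 had 8, and with equal numbers of calls, where DE had 8 and day 10 had 10.

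Naive cells had no call in a stretch downstream of the gene, chr5:135446216-135504029. Its nearest interval was centred 34.6 kb from the start of NEUROG1 and its farthest 87.2 kb away. The stretch was delimited after its values were seen, as the span of intervals under 100 kb downstream that were reached from 2 or more baits. It held 30 of the 74 contacts and 53 of the 99 calls (53.5%). Day 1 had 3 calls there, day 3 had 6, day 5 had 4, day 7 had 5, day 10 had 6 and day 14 had 9. H9 had 4, DE 7 and NE 9. No naive score there passed 4.76. The mean score over the 30 contacts was 1.85 in naive cells, 2.39 at day 1, 2.75 at day 3, 2.72 at day 5, 3.33 at day 7, 3.25 at day 10, 3.71 at day 14, 2.65 in H9, 3.70 in NE and 3.25 in DE. Since naive cells made no call here, every one of the 30 contacts was listed through another condition, so a low naive mean follows from the listing and is given as a description only. Outside the stretch the other 44 contacts gave 5 calls each in naive cells and at day 14, 2 in H9, 8 in NE and 8 in DE.

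The interval of the stretch nearest to NEUROG1, chr5:135498643-135504029, held no protein-coding gene and was reached from 4 baits, with 15 calls in 8 conditions. Its highest score over the baits was 3.03 in naive cells, 4.62 at day 1, 6.23 at day 3, 6.08 at day 5, 6.53 at day 7, 10.45 at day 10, 7.81 at day 14, 5.74 in H9, 10.82 in NE and 6.98 in DE. It was called in every condition except naive and day 1 cells. From the bait chr5:135534088-135534493, which overlaps the downstream end of the gene body, this interval was called in 7 conditions, the most of any contact of the 9 genes. There the score was 2.18 in naive cells, 1.73 at day 1, 6.23 at day 3, 6.08 at day 5, 6.53 at day 7, 4.10 at day 10, 7.81 at day 14, 5.74 in H9, 5.64 in NE and 6.98 in DE. At the far end of the stretch the intervals overlapped TIFAB and DCANP1, small neighbours of NEUROG1. Those contacts scored up to 7.06 at day 7 and 7.20 in DE, and the farthest interval was called only at day 1 and in DE.

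On the other side of NEUROG1, 19 contacts reached SLC25A48, a gene of the mitochondrial carrier family, at 184 to 356 kb. They were called 5 times in naive cells, 3 times at day 5, 3 times in DE and 6 times in NE, and once each at day 3 and day 10. Day 1, day 7, day 14 and H9 had 0. The strongest of them scored 8.54 in naive cells and 0.00 at day 1. All naive calls of NEUROG1 lay in SLC25A48, and none of the 14 at day 14 did. A pair of the naive calls, with scores of 5.55 and 5.26, recorded the same 2 fragments from either end, which both serve as baits. The highest score at day 14, 9.14, joined the bait chr5:135536521-135536726 to chr5:135035559-135039687, 499 kb away, where naive cells scored 0.00 and H9 1.10.

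NEUROG2 (Gene ID 63973, chr4:112513516-112516180, minus strand) had 51 contacts within chromosomes, of which 48 lay downstream of the gene. Calls numbered 9 in naive cells, 6 at day 1, 4 at day 3, 7 at day 5, 6 at day 7, 10 at day 10, 8 at day 14, 7 in H9, 20 in NE and 14 in DE. Both differentiated cell types were above all 8 pluripotent conditions. In all, 39 contacts and 79 of 91 calls (86.8%) joined NEUROG2 to ALPK1 (chr4:112297369-112442621), a gene for an alpha kinase of innate immunity, at 80.3 to 204 kb. ALPK1 contacts were called 8 times in naive cells, 5 at day 1, 4 at day 3, 6 at day 5, 6 at day 7, 7 at day 10, 8 at day 14, 7 in H9, 15 in NE and 13 in DE. A pair of the naive calls, with scores of 5.80 and 6.06, recorded the same 2 fragments from either end. The mean score of the ALPK1 contacts lay between 2.00 and 2.74 in the pluripotent conditions and was 3.74 in DE and 3.89 in NE. Some of these contacts were listed only through a call in DE or NE, such as that of 8.56 in NE at 98.6 kb. Higher means in DE and NE therefore follow in part from the listing and are given as a description only. Whether the intervals fell in exons or introns of ALPK1 was not analysed here.

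The share of contacts called in more than 1 condition was highest at NEUROG2, a difference that was not tested. Of its 51 contacts, 19 (37.3%, 25.3 to 51.0) were called in 2 or more conditions and 12 in 3 or more, against 14.2% in 2 or more over all contacts within chromosomes. The share was 18.9% (14 of 74) for NEUROG1 and 15.6% (7 of 45) for OLIG2. NEUROD1, NEUROD2 and ATOH1 had 1 such contact each, and NEUROG3, OLIG1 and OLIG3 had 0. Neighbouring baits can report on the same interval, so these contacts were not independent of each other: 75.0% of the calls from NEUROG2 baits and 64.9% of those from NEUROG1 baits fell on intervals that 2 or more baits reached.

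Adjoining ALPK1 intervals at chr4:112340521-112346067 and chr4:112346068-112351536, 172.9 and 167.4 kb from the start of NEUROG2, had 11 calls each, in 7 and 8 conditions. The strongest score of the gene, 11.50, was at day 7 between the bait chr4:112511448-112513680 and chr4:112320123-112325344, where naive cells scored 0.00 and NE 2.92. The bait chr4:112513681-112514242 scored 10.61 at day 7 with the same interval. With chr4:112356606-112361898, also in ALPK1, that bait scored 10.58 in naive cells, 7.36 at day 7, 2.41 at day 14 and 5.12 in NE. From the bait chr4:112513681-112514242 to chr4:112330787-112335844 the score was 6.45 in naive cells, 0.83 at day 1, 4.77 at day 3, 2.94 at day 5, 1.90 at day 7, 7.31 at day 10, 8.64 at day 14, 8.23 in H9, 3.48 in NE and 1.67 in DE. That contact was called in naive cells, at days 10 and 14 and in H9. From the other baits of the gene the same interval was also called in DE (5.17) and in NE (5.12 and 5.84), at day 7 (7.57) and at day 14 (5.88). Seen from the ALPK1 side, a contact between 2 other fragments joined a bait within ALPK1 (chr4:112327683-112330786) to the interval that holds the printed NEUROG2 promoter. It had scores of 0.00 in naive cells, 1.19 at day 1, 3.96 at day 3, 2.52 at day 5, 2.56 at day 7, 1.31 at day 10, 6.09 at day 14, 5.43 in H9, 5.25 in NE and 8.20 in DE. Day 14, H9, DE and NE passed the threshold from this bait, and none of the earlier 6 time points did. Other baits within ALPK1 did not share that order. From them the same promoter interval was called in naive cells (5.07), at day 5 (5.39), in NE (5.04), and at day 3 and in DE (6.08 and 6.33).

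**Figure D2:**
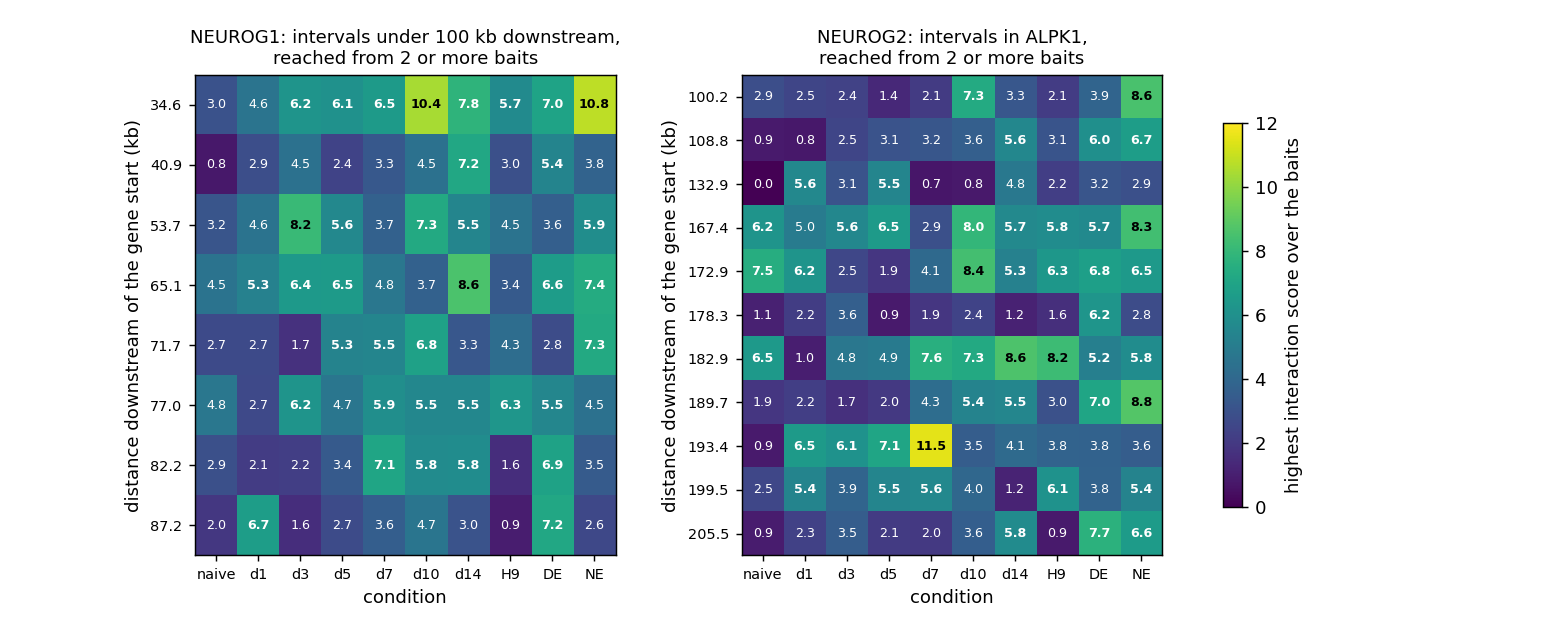
Each row is an interval reached from 2 or more baits of NEUROG1 (left, within 100 kb downstream) or NEUROG2 (right, in ALPK1), labelled by its distance downstream of the gene's start in kb. Each column is a condition, and cells print the highest interaction score over the baits, in bold from 5 upwards. The NEUROG1 panel has no naive score of 5 or more, while the NEUROG2 panel has naive scores of 6.19, 7.49 and 6.45 at 167.4, 172.9 and 182.9 kb. The highest naive score of NEUROG2, 10.58 at 156.9 kb in ALPK1, is not shown because only 1 bait reached that interval.

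NEUROG3 (Gene ID 50674, chr10:69571485-69573422, minus strand) had 14 contacts within chromosomes and no contact called in more than 1 condition. Calls numbered 1 in naive cells and at days 1 and 3, 2 at day 5, 3 at day 7, 1 at day 10, 0 at day 14, 1 in H9, 2 in NE and 2 in DE. The strongest score, 7.16, was in naive cells with COL13A1, a transmembrane collagen gene 263 kb away, and it was 0.00 at day 14. In NE a contact 221 kb away scored 6.78. Counts this low do not order the conditions.

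NEUROD1 (Gene ID 4760, chr2:181668295-181680517, minus strand) had 32 contacts within chromosomes. Its calls numbered 5 in naive cells, 3 at day 1, 6 at day 3, 3 at day 5, 3 at day 7, 4 at day 10, 2 at day 14, 1 in H9, 2 in NE and 5 in DE. Contacts with CERKL, a ceramide kinase-like gene next to NEUROD1, were 12 of the 32 and had 12 calls, each in a single condition, at 25.9 to 120 kb. The contact that recurred was short: the bait chr2:181658277-181658550 met the gene body interval chr2:181669783-181675009 at 14.0 kb. It scored 4.50 in naive cells, 3.02 at day 1, 6.49 at day 3, 3.36 at day 5, 4.75 at day 7, 1.99 at day 10, 6.40 at day 14, 5.12 in H9, 1.90 in NE and 3.47 in DE. It was called at days 3 and 14 and in H9, with naive and day 7 scores just under the threshold. The highest score of the gene, 8.33, was at day 3 over 545 kb.

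NEUROD2 (Gene ID 4761, chr17:39603768-39607920, minus strand) had 22 contacts within chromosomes, with 3 calls in naive cells, 0 at days 1, 3 and 5, 3 at days 7, 10 and 14, 2 in H9, 4 in NE and 5 in DE. Days 1 to 5 were thus without a call and all other conditions had some. A pair of the NE calls, with scores of 6.13 and 6.94, recorded the same 2 fragments from either end, 2659 kb apart. The 3 highest scores came from the bait chr17:39604718-39606071 and each was called once. They were 8.56 in DE at 398 kb, 7.46 in H9 at 414 kb in an interval with CSF3 and MED24, and 7.44 in NE at 872 kb in an interval with MLLT6, CISD3 and PCGF2, a Polycomb subunit gene. The NE and H9 contacts scored 0.00 in every other condition.

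ATOH1 (Gene ID 474, chr4:93828753-93830964, plus strand) had 21 contacts within chromosomes, all downstream and none under 100 kb, with a median of 362 kb. Calls numbered 0 in naive cells, 2 at day 1, 2 at day 3, 4 at day 5, 0 at day 7, 3 at day 10, 2 at day 14, 3 in H9, 2 in NE and 4 in DE. The strongest, 10.67 at day 5, joined the bait chr4:93828897-93830068 to chr4:94162518-94168048 at 336 kb, and it scored 3.40 at day 10 and 0.00 at day 14. SMARCAD1, a chromatin remodeller gene, was met by 8 contacts at 377 to 433 kb, with 3 of their 8 calls in DE and the highest score, 9.34, also in DE. That contact scored under 1.5 in every other condition.

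OLIG2 (Gene ID 10215, chr21:33025935-33029185) had 45 contacts within chromosomes, 41 of them from its own 5 baits. Calls numbered 6 in naive cells, 4 at day 1, 9 at day 3, 4 at day 5, 4 at day 7, 3 at day 10, 2 at day 14, 7 in H9, 9 in NE and 7 in DE. Day 14 was the lowest condition, and day 3 and NE were the highest. This order depended on the margin. With no margin days 1, 7 and 14 all had 0, NE had 1 and day 3 had 2. With a 5 kb margin day 14 had 5 and days 1, 5, 7 and 10 had 4. The bait chr21:33029269-33029760 met chr21:33111056-33117512 at 84.8 kb with scores of 3.51 in naive cells, 5.31 at day 1, 5.29 at day 3, 3.39 at day 5, 2.71 at day 7, 1.96 at day 10, 3.73 at day 14, 9.04 in H9, 5.18 in NE and 1.77 in DE. A bait near that interval, chr21:33127394-33127777, met the OLIG2 gene body at 101 kb and scored 8.94 in H9, 3.97 at day 14 and at most 2.66 elsewhere. The highest OLIG2 score, 9.26, was in NE with IL10RB, a receptor subunit gene 277 kb away, and it was 0.00 at day 14. From the bait chr21:33029761-33029958 the same interval was called at day 10 with 8.54 and scored 1.32 at day 14 and 0.00 in NE.

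OLIG1 (Gene ID 116448, chr21:33070141-33072413), beside OLIG2, had 15 contacts within chromosomes, 14 of them from its 1 bait of 3021 bp and 1 from a bait of OLIG2. Its calls numbered 1 in naive cells, 2 at day 1, 0 at day 3, 1 at day 5, 0 at day 7, 2 at day 10, 1 at day 14, 3 in H9, 4 in NE and 1 in DE. The top score, 8.51, was in DE with SYNJ1, a phosphoinositide phosphatase gene of synapses, 369 kb away. OLIG1 and OLIG2 shared 1 contact, 38.6 kb long, which was called only in H9 with 6.23 and scored 1.15 at day 14 and 2.56 in NE. It was the only contact within chromosomes that joined any of the 9 genes to each other. OLIG3 (Gene ID 167826, chr6:137492199-137494394, minus strand) had 9 contacts within chromosomes and 9 calls, 1 each at days 3, 5, 7 and 10, 2 in H9 and 3 in NE. Its highest score was 5.88 at day 10, so all its calls lay near the threshold.

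Naive and day 14 cells were compared to ask how the genes' contacts differ before and after the transition to the primed state. A gene was counted as different where it had at least 3 more or fewer calls and at least a 2-fold difference, which 5.61% of the 14271 genes met with more calls at day 14 and 3.82% with fewer. NEUROG1 met it with more calls (5 and 14), and NEUROD1 (5 and 2) and OLIG2 (6 and 2) met it with fewer. In total the 9 genes had 30 calls in naive cells and 32 at day 14, or 10.6% and 11.3% of their listed contacts, beside the 10.0% and 11.2% over all. Only 2 of the 30 naive calls (6.67%) were kept at day 14, close to the 6.80% over all contacts, and 18 of the 28 that were lost scored 0 at day 14, beside 6938 of 17029 over all contacts. The NEUROG1 difference also met the rule at a threshold of 3 (10 and 23 calls), with no margin (1 and 5), with a 5 kb margin (5 and 16) and with an equal number of calls per condition (5 and 13), while at a threshold of 10 both conditions had 0. OLIG2 no longer met it with no margin (1 and 0) or with a 5 kb margin (6 and 5), and NEUROD1 turned round with no margin (1 and 2).

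H9 was set against day 14 to compare a conventional primed line with cells that reached that state through the transition. More calls were counted in H9 for 6.44% of genes and fewer for 3.69%. OLIG2 had more calls in H9 (2 at day 14 and 7 in H9) and NEUROG1 had fewer (14 and 6). Of 32 calls at day 14, 6 (18.8%, 8.89 to 35.3) were also made in H9, against 8.60% of all contacts called at day 14. Most of these 6 joined NEUROG2 to nearby intervals of ALPK1. The range treats calls as independent and is therefore too narrow to set the shares apart. Of the other 26 calls at day 14, 19 had a score above 0 and under 5 in H9, beside 12392 of 18736 over all contacts. The genes' calls numbered 32 and 31 in total, 11.0% of listed contacts in H9 beside 13.0% over all. NEUROG1 no longer met the rule at a threshold of 3 (23 and 15), and OLIG2 no longer with no margin (0 and 2) or with a 5 kb margin (5 and 9).

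DE and NE were set against day 14, the cells they came from. Day 14 is the shared control of these comparisons and of that with H9, so the 3 are not independent of each other. In DE 9.59% of genes had more calls by the rule and 2.73% fewer, and in NE 11.7% had more and 2.24% fewer. NEUROD1 (2 and 5) and OLIG2 (2 and 7) had more calls in DE. NEUROG2 (8 and 20), OLIG1 (1 and 4), OLIG2 (2 and 9) and OLIG3 (0 and 3) had more in NE, and none of the 9 genes had fewer in either. By any difference 7 of the 9 genes had more calls in DE and 7 in NE, with 0 fewer in both, and the median difference was 2.00 and 3.00 calls. Over all genes 37.2% had more and 21.4% fewer in DE and 41.6% had more and 18.9% fewer in NE, with a median of 0. The other 41.4% and 39.5% had the same number, and genes with as many calls were not compared apart. With an equal number of calls per condition, NEUROG1 (13 and 8) had fewer in DE, while NEUROG2, NEUROG3, NEUROD1, NEUROD2 and OLIG2 had more. In NE NEUROG1 (13 and 10), NEUROD1 (2 and 1) and ATOH1 (2 and 0) then had fewer. Only NEUROG2 (8 and 13), NEUROG3 (0 and 1) and OLIG2 (2 and 7) then had more in NE.

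Called contacts of the 9 genes within chromosomes numbered 53 in DE and 63 in NE. That was 18.8% of their listed contacts in DE (14.7 to 23.8) and 22.3% in NE (17.9 to 27.6), beside the 16.2% and 17.9% over all contacts. NEUROG2 accounted for the largest part of the difference in NE, with 12 calls more than at day 14, 7 of them in ALPK1. With the same number of top-scoring contacts taken in every condition, which removes the excess of DE and NE calls, NEUROG2 had 8 calls at day 14, 13 in DE and 13 in NE. NEUROG1 then had 13 at day 14, 8 in DE and 10 in NE, so that its direction turned. OLIG2 still met the rule (2 at day 14, 5 in DE and 7 in NE), while NEUROG2 and NEUROD1 (2 and 4 in DE) did not, and OLIG1 (1 and 1) and OLIG3 (0 and 0) had no more calls in NE than at day 14. With no margin OLIG2 had 0 calls at day 14, 2 in DE and 1 in NE, and NEUROD1 had 2 and 4, which also missed the rule. With a 5 kb margin NEUROG2 (20 and 36 in NE) and OLIG2 in DE (5 and 7) missed it, and at a threshold of 3 so did NEUROG2 (16 and 29). Of the 32 calls at day 14, 6 were kept in DE and 4 in NE, or 18.8% and 12.5% beside 10.0% and 11.2% over all contacts. The 6 kept in DE all belonged to NEUROG1 or joined NEUROG2 to ALPK1, where neighbouring baits share intervals.

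**Figure D3:**
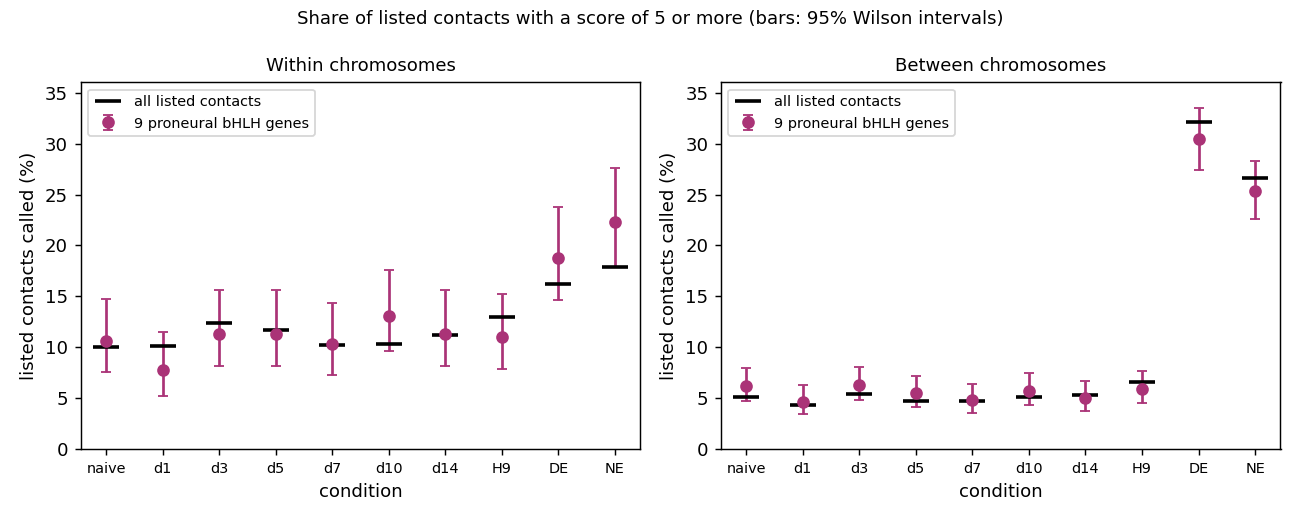
Points give the percent of the 9 genes' listed contacts with a score of 5 or more in each condition, with 95% Wilson intervals for counting error, and black dashes give the percent over all listed contacts. Within chromosomes (left) the genes' share was 22.3% in NE beside 17.9% over all, and between chromosomes (right) it was 30.4% in DE beside 32.1%.

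Contacts between chromosomes did not recur. All 872 had a score above 0 in 1 condition only, as did 99.8% of all contacts between chromosomes. None of the 872 was called in 2 or more conditions, with an upper Wilson limit of 0.439%, against 0.145% over all. Calls numbered 54 in naive cells, 41 at day 1, 55 at day 3, 48 at day 5, 42 at day 7, 50 at day 10, 44 at day 14, 52 in H9, 221 in NE and 265 in DE. Over all contacts between chromosomes 5.10% were called in naive cells, 4.35% at day 1, 5.46% at day 3, 4.71% at day 5, 4.76% at day 7, 5.15% at day 10, 5.38% at day 14, 6.59% in H9, 26.6% in NE and 32.1% in DE. The genes' own shares were 30.4% in DE (27.4 to 33.5) and 25.3% in NE (22.6 to 28.3), close to those backgrounds. They made up 1.35 to 1.81 of every 1000 calls between chromosomes in each condition.

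Every one of the 9 genes had more calls between chromosomes in DE and NE than at day 14. NEUROG1 had 13 at day 14, 71 in DE and 64 in NE, and OLIG2 had 12, 54 and 53. NEUROD2 had 2, 36 and 26, NEUROG2 5, 25 and 19, and NEUROD1 4, 20 and 15. NEUROG3 had 2, 19 and 16, OLIG3 3, 19 and 7, ATOH1 3, 15 and 13, and OLIG1 0, 6 and 8. The excess was general to the matrix, and with an equal number of calls per condition the 9 genes together had 36 at day 14, 25 in DE and 39 in NE.

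A pair of short baits held 225 of the 872 calls between chromosomes (25.8%). The NEUROG1 bait chr5:135534494-135534645, of 152 bp, had 128 contacts between chromosomes, more than 99.9% of all baits, and the OLIG2 bait chr21:33029055-33029268, of 214 bp, had 97, more than 99.7%. Without them NEUROG1 had 133 and OLIG2 106. The median was 17.0 over all baits and 30.0 over the 3956 baits shorter than 250 bp. Length alone did not order them, since the NEUROG1 bait of 159 bp had 4 and the NEUROD2 bait of 1354 bp had 78. Whether bait length has a part in these counts was not tested.

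**Figure D4:**
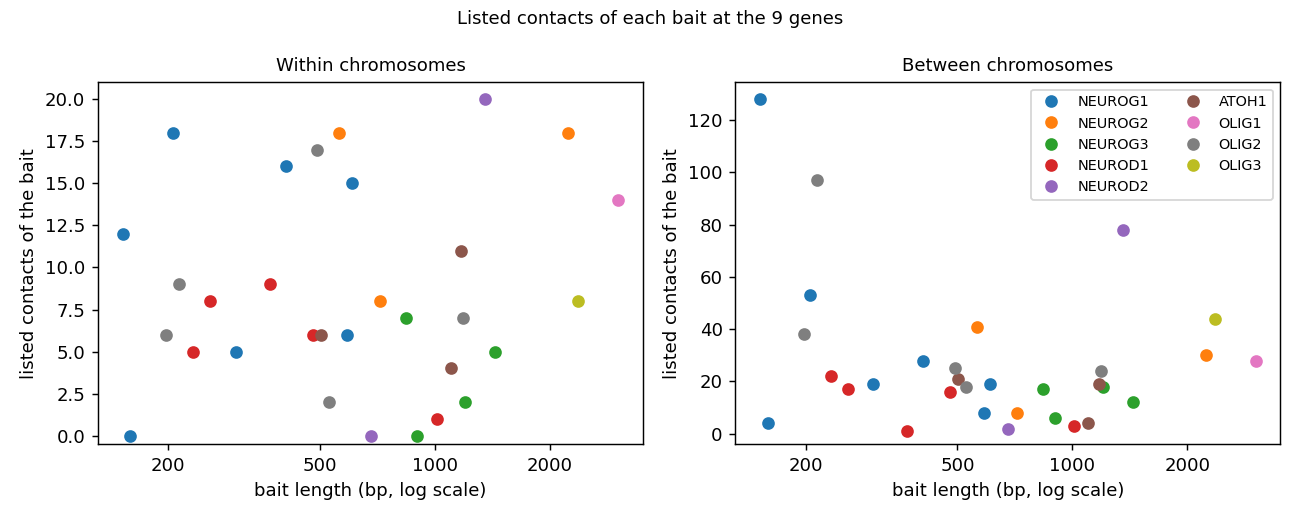
Each point is 1 of the 31 baits at the 9 genes, with its length in bp on a logarithmic horizontal axis and its number of listed contacts on the vertical axis, within chromosomes (left) and between them (right). The 152 bp bait of NEUROG1 stands at 128 contacts between chromosomes and the 214 bp bait of OLIG2 at 97, while within chromosomes they had 12 and 9.

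The highest scores between chromosomes belonged to NEUROD2, with RHPN1 on chromosome 8 (24.22 in DE) and NEK6, a mitotic kinase gene on chromosome 9 (22.04 in DE). NEUROG1 met TOLLIP, a gene of innate immune signalling on chromosome 11, with 17.61 at day 3, and NEUROD2 met RNF31, a ubiquitin ligase gene on chromosome 14, with 17.54 at day 3. Each was called in 1 condition. Scores of 10 or more made up 10.2% of the calls between chromosomes and 1.66% of those within. OLIG2 had 1 contact with TCF4, the gene of an E protein that dimerises with proneural factors, called once at day 1 with 11.29.

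Other genes of the pathway were taken from 5 lists with 49 genes, of which 43 had a contact within chromosomes, and are given beside the backgrounds above. Of 12 linked neural bHLH genes outside the 9, ATOH8 (0 and 3 calls) and TAL1 (2 and 9) had more calls at day 14 than in naive cells by the same rule, and 0 had fewer. NEUROD4 had more in H9 (0 and 3). TAL1, whose product directs blood development, had fewer calls than at day 14 in DE (9 and 2) and in NE (9 and 3). In NE NEUROD4 (0 and 3) and NHLH2 (2 and 5) had more. Among the 3 E protein genes, TCF12 had more calls in NE (0 and 3) and no other difference met the rule.

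Of 11 linked repressor genes of the HES, HEY and ID families, HES2 had more calls at day 14 than in naive cells (0 and 3) and none had fewer. HES3 had more in H9 (6 and 17), HEY1 in DE (2 and 8), and HES2 (3 and 6) and HES3 (6 and 16) in NE. Of 7 linked Notch receptor and ligand genes, NOTCH2 had more calls at day 14 than in naive cells (0 and 3) and fewer in H9 (3 and 0). The ligand genes DLL1 (0 and 4), DLL3 (2 and 5), DLL4 (1 and 4) and JAG1 (0 and 5) had more in DE, and DLL1 (0 and 4) and DLL3 (2 and 7) had more in NE. The Notch list had 6 calls at day 14, 22 in DE and 21 in NE, with a median difference of 3.00 and 2.00 calls per gene, beside a median of 0 over all genes. The other lists also had more calls in NE and differed in direction only in DE. Calls over all contacts within chromosomes numbered 20498 at day 14, 29563 in DE and 32672 in NE. More calls in NE were therefore not particular to these lists. The E protein genes had 5 calls at day 14, 1 in DE and 8 in NE, and the other neural bHLH genes 30, 23 and 34. Among the latter TAL1 alone went from 9 to 2 in DE. The repressor genes had 17, 26 and 36 calls and the target genes 58, 86 and 110. The lists were not counted with an equal number of calls per condition.

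All 10 genes listed as targets of proneural factors were linked. RBFOX3, which encodes the neuronal antigen NeuN, had more calls at day 14 than in naive cells (5 and 16), as did GADD45G (0 and 3), while EBF3 had fewer (6 and 1). EBF2, a gene of early neuronal differentiation, had 6 calls at day 14, 13 in H9, 24 in NE and 23 in DE. GADD45G had 3, 9, 12 and 12 in the same order. INSM1, a zinc finger gene of neuroendocrine cells, had 2 at day 14, 7 in DE and 8 in NE, and DCX, a microtubule gene of young neurons, had 3 in H9 and 0 at day 14.

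For each gene with at least 20 calls the profile of called contacts over the 10 conditions was compared with those of 3419 to 3480 other genes, and the 3 with the highest Pearson correlation were named. These correlations describe 10 pooled values whose totals all genes share, and they carry no test. NEUROG1 was most like SUSD4 (0.970), SMUG1 (0.948) and CDH22 (0.926). SUSD4 had 1 naive call, 5 calls at day 14, 2 in H9, 8 in NE and 7 in DE, so it was low and high in the same conditions as NEUROG1. NEUROG2 was most like OPTC (0.964), TBC1D5 (0.961) and SERPINE2 (0.961), which had 17 calls in NE and 9 in DE. OLIG2 was most like MAP3K3 (0.908), KATNAL2 (0.908) and PLCG1 (0.900). NEUROD1 was most like LOC124905948 (0.878), TCF7L1 (0.862) and CCDC149 (0.850), NEUROD2 like TMEM158 (0.897), SLC26A8 (0.896) and MRPL23 (0.852), and ATOH1 like PRR5L (0.874), ABLIM1 (0.872) and ERICH5 (0.859).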

How the data were processed

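The authors deposited a matrix of CHiCAGO interaction scores from 20 Capture Hi-C libraries, with a single score column for each of the 10 conditions that per the labels takes in both libraries. The number of columns left without a sample was 0. A deposited distance column was used for lengths within chromosomes. The build was GRCh38 per the submitters' processing notes. Aligner, caller version, binning and filters are not given in the sources used here, and depth per library was unknown. Other ends had a median length of 5256 bp and the genes' baits of 588 bp.

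Gene positions and symbols came from the RefSeq gene table and promoters from the RefSeq promoter table, both on GRCh38; strand was taken from the promoter table. Contacts were linked to the 9 genes by overlap within 1 kb and called at a score of 5 or more. Shares have Wilson 95% intervals. No test between conditions was run. Genes were counted as different at 3 or more calls and a 2-fold difference. The text names the 9 genes, the 3 genes of most similar profile and list genes that met the rule. Genes of similar profile had at least 5 contacts in some condition, no shared contact and lay over 2 Mb away. Contacts called in at least 3 conditions or among a gene's 3 highest scores were to be named, but only some of them are given. The NEUROG1 stretch, the contacts with SLC25A48, CERKL and SMARCAD1, the single OLIG1 and TCF4 contacts and the short baits were singled out after their values were seen. A list gene that met the rule is not reported here. The genes and lists were chosen with earlier results of these data known. Alternatives were thresholds of 3 and 10, no margin and a 5 kb margin, bait pairs counted once and the same number of highest scores taken as calls in every condition. The linking of contacts to intervals was tested on simulated contacts. Tools were pandas 2.3.3, numpy 2.4.6, statsmodels 0.14.6 and matplotlib 3.10.9 under Python 3.11.15.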

Additional observations from a re-analysis of the deposited data

How the results depend on the processing

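No paired analysis was possible because the matrix held 1 pooled column per condition, and for the same reason no replicate could be left out. Ratios below are the 9 genes' called contacts in 1 condition over those in another. Within chromosomes the ratio of day 14 to naive cells was 1.07 and became 0 at a threshold of 10, where 1 naive contact remained. That of H9 to day 14 was 0.969, and it was 1.02 at a threshold of 3 and 1.15 with no margin, on the other side of 1. NE to day 14 was 1.97, and 1.16 with an equal number of contacts per condition (18272), while DE to day 14 kept its direction at 1.66 with a range of 1.29 to 2.00. At a threshold of 10 no ratio to day 14 within chromosomes could be had, since day 14 had 0 calls.

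Between chromosomes the ratio of day 14 to naive cells was 0.815, and 0.273 at a threshold of 10. H9 to day 14 was 1.18, with 2.33 at that threshold and 0.902 with no margin. DE to day 14 was 6.02, with 1.67 at a threshold of 10 and 0.694 with an equal number of contacts (25414). NE to day 14 was 5.02, with 3.00 and 1.08 under the same alternatives. The cause was not tested, beyond the equal number, which by its construction removes the excess of calls in DE and NE. Of the 90 counts per gene and condition within chromosomes, 90 stayed within 1.5 times when bait pairs were counted once, 74 with equal numbers, 68 with no margin, 45 with a 5 kb margin, 40 at a threshold of 3 and 12 at a threshold of 10. Scores near 5 limited the small counts, since 57.1% of calls within chromosomes scored under 6.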
